A study of Mus musculus with 15 samples.

Results

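Expression of 34 genes of glycolysis, of lactate production and transport, and of the entry of pyruvate into mitochondria was compared in mouse hematopoietic stem cells (HSCs) sorted into bins of remaining histone label. The genes were chosen by symbol. All 34 were found among the 31298 gene symbols of the expression table, and all 34 passed the filter on low values that left 27994 genes for testing. They comprise 2 glucose transporters, 3 hexokinases, 7 enzymes from glucose phosphate to triose phosphate, 3 enzymes of the PFKFB family, 7 enzymes from triose phosphate to pyruvate, 4 genes of lactate conversion and transport, 4 pyruvate dehydrogenase kinases, 3 subunits of the pyruvate dehydrogenase complex, and Hif1a.

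RNA was sequenced from HSCs of mouse bone marrow. All mice carried hCD34-tTA x TetO-H2BGFP, a green fluorescent (GFP) fusion of histone H2B whose expression depends on a transactivator under human CD34 regulatory sequence, so the label exists in cells in which that sequence is active. Doxycycline, which stops production of the label so that each division dilutes it, was given in drinking water at 1 mg/ml from an age of 2 to 4 months in every group, Total included. HSCs were sorted as lineage-negative, Sca1+, c-Kit+, CD48-, Flk2-, CD150+ cells, and were split by remaining label into bins numbered GFP1 to GFP4, while Total denotes HSCs sorted without that split. There were 3 libraries in each of the 5 groups, and in every group replicate I came from mice aged 5 months after 12 weeks of doxycycline, replicate II from mice aged 5.5 months after 14 weeks, and replicate III from mice aged 6.5 months after 16 weeks. Whether GFP1 or GFP4 is the brighter end is not said in the labels, and the bin number is read here as rising with the label. They also do not say whether a library is 1 mouse or a pool, or whether libraries with the same number share mice, so the p-values reflect only how these libraries vary.

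Glycolysis splits glucose into pyruvate in the cytosol. Pyruvate is then either reduced to lactate by lactate dehydrogenase and exported, or carried into mitochondria and oxidised by the pyruvate dehydrogenase complex, which pyruvate dehydrogenase kinases switch off. Most steps are served by several related genes whose proteins differ in kinetics and in tissue distribution. Quiescent mouse HSCs are known for their reliance on glycolysis, and mouse HSCs that lack both Pdk2 and Pdk4 lose quiescence and repopulating capacity.

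All values are log2 expression, quantile normalized by the authors, so that every library has the same distribution and differences in total RNA are removed. The unit before the logarithm is not given in the sources used here. Values are therefore compared between groups for 1 gene and not between genes, and read depth is unknown, so no counting interval is given. A difference of 1 on this scale is a doubling of the value. Differences were tested with limma and are called where the Benjamini-Hochberg adjusted p over all 27994 genes is under 0.05.

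The HSC identity of the sort was read from 10 HSC marker genes. Among them Kit (c-Kit), Ly6a (Sca1) and Slamf1 (CD150) encode antigens of the sort gate, so their expression is no independent check. All 10 genes were expressed in every group. They took between 0.241% and 0.249% of the summed linear values in GFP1, and in Total between 0.260% and 0.353%, against 0.458% to 0.544% in GFP4, and 7 of the 10 were lower in GFP1 than in GFP4. Plasma cell markers took between 2.05% and 2.73% in GFP1, and in Total between 2.20% and 2.39%. They took 0.0298% to 0.0588% in GFP4, 0.0268% to 0.0502% in GFP3 and 0.0234% to 0.0297% in GFP2, and all 10 were higher in GFP1 than in GFP4. Of the 10, Xbp1 was also expressed in the other bins, with means of 12.98 in GFP4, 12.76 in GFP3 and 12.70 in GFP2. The sums in those bins are therefore partly Xbp1. In GFP2, where Ighm averaged 10.36 and Igkc 9.60, the sum is mainly Xbp1. Immunoglobulin genes took 4.34% to 5.49% of the summed values over the 6 GFP1 and Total libraries and 0.00726% to 0.0737% over the other 9. Between GFP1 and GFP4, 5 of 6 B cell, 5 of 6 megakaryocyte and 4 of 8 erythroid markers were higher and none lower, 2 of 6 T and NK cell markers were higher and 1 lower, and none of 8 neutrophil and 6 macrophage markers passed the test. Of all genes, 9.27% were called higher and 10.3% lower there. Neutrophil markers were present in every group, at 0.367% to 0.658% of the summed values in GFP1 and 0.249% to 0.657% in GFP4. They took 0.369% to 0.531% in GFP3, 0.158% to 0.424% in GFP2 and 0.165% to 0.463% in Total. The plasma cell and immunoglobulin differences accompany every comparison of GFP1 or Total with GFP4, GFP3 or GFP2. GFP1 and Total carried these transcripts at like levels, while the HSC marker sum was lower in GFP1 than in Total. Igkc, however, read 19.12 in every GFP1 and Total library (SD 0 in both groups). Quantile normalization gives a gene of the same rank the same value in each library. The like levels therefore do not show that plasma cell content was equal. The part of these and the other marker genes in the results on the 34 genes was not tested. In bulk samples, fewer cells of a type and less RNA per cell cannot be told apart.

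Between GFP1 and GFP4, the bins with the least and the most label under that reading, 20 of the 34 genes were called. Of these, 7 were higher in GFP1, where 9.27% of all genes were called higher, and 13 were lower in GFP1, where 10.3% of all genes were called lower. The genes that rose were those of triose phosphate conversion (Tpi1, Gapdh, Pgk1), of lactate production and transport (Ldha, Slc16a1, Slc16a3) and the pyruvate dehydrogenase subunit Dlat. The genes that fell were both glucose transporters, Hk3, both aldolases, all 3 PFKFB genes, Eno2, Ldhb, and the kinases Pdk1, Pdk2 and Pdk4. The median difference of the 34 genes was −0.11, against −0.07 for all genes tested. Since members moved in both directions, the median says little of how many changed.

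The count of risen genes depended on single libraries and on scaling. It was 3 without GFP4 replicate I or without GFP1 replicate III, and 4 without GFP4 replicate II, GFP2 replicate II, GFP1 replicate I or GFP1 replicate II. With quantile normalization repeated without the immunoglobulin genes, and likewise with median-of-ratios rescaling, 9 genes were higher and 10 lower. The share of all genes called in these altered fits is not given, so no change in balance is read from the counts. The calls of Slc2a1, Slc2a3, Aldoa, Aldoc, Pfkfb3, Pgk1, Eno2, Ldha, Ldhb, Slc16a1, Pdk2 and Pdk4 held under each of the 24 alternatives run for this comparison.

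**Figure D1:**
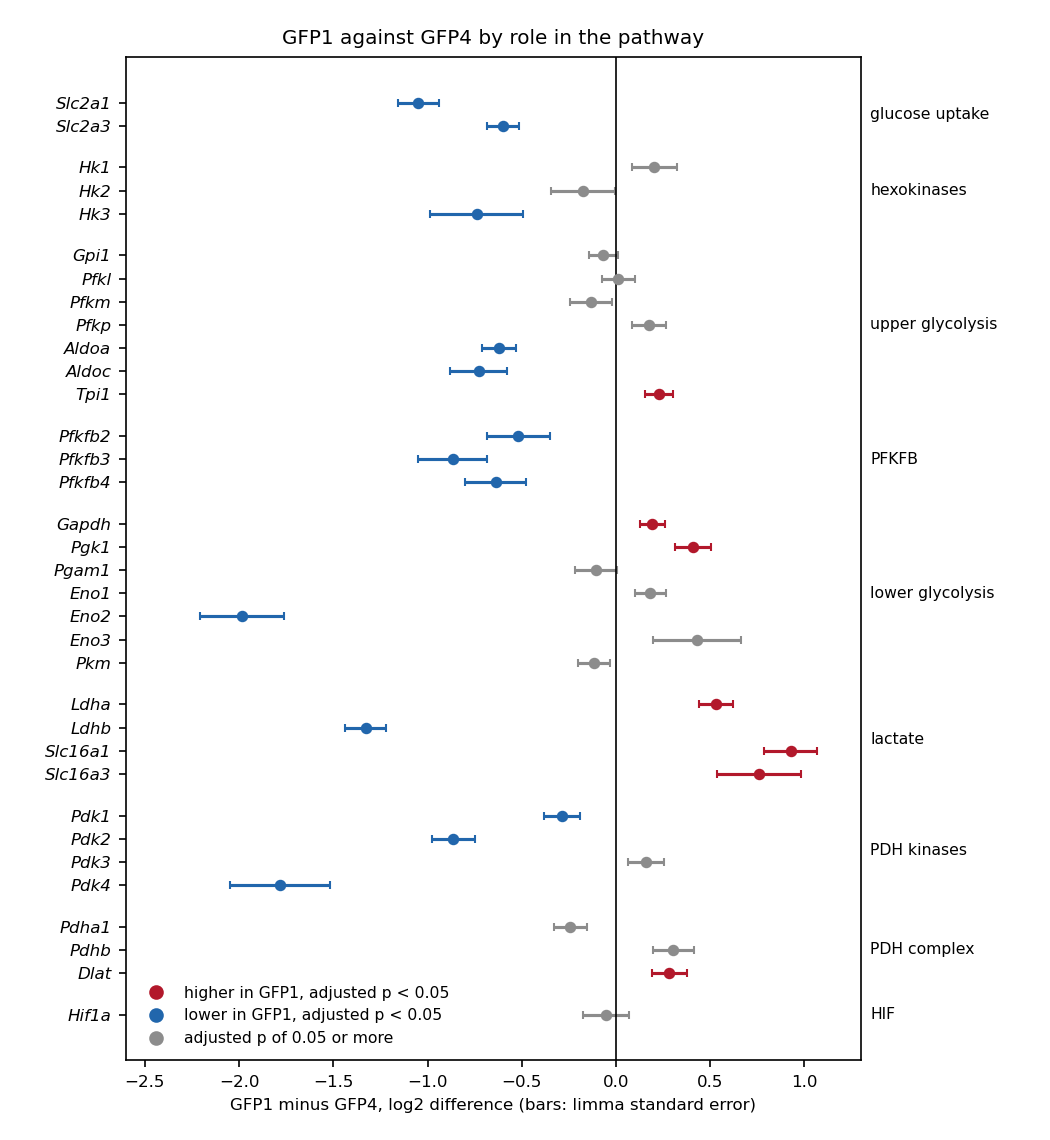
Difference between the GFP1 and GFP4 means (log2, horizontal axis) for the 34 genes, grouped by role, with bars of 1 limma standard error; red marks genes higher in GFP1, blue genes lower in GFP1 and grey genes that did not pass the test. Eno2 (−1.99), Pdk4 (−1.78) and Ldhb (−1.33) lie farthest to the left and Slc16a1 (0.93) farthest to the right.

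Glucose enters blood cells through facilitative transporters, of which Slc2a1 (GLUT1) is the broadly expressed one and Slc2a3 (GLUT3) has a high affinity for glucose. Slc2a1 had values of 11.58, 11.51 and 11.59 in GFP4, 11.02, 11.41 and 11.28 in GFP3, 10.99, 11.17 and 10.95 in GFP2, 10.55, 10.54 and 10.43 in GFP1, and 10.89, 10.99 and 11.01 in Total. The GFP4 libraries were the 3 highest and the GFP1 libraries the 3 lowest of the 15, with no overlap. The difference between GFP1 and GFP4 was −1.05 (2.07-fold, SE 0.107, adjusted p = 6.42e-07). Slc2a3 read 13.44, 13.36 and 13.36 in GFP4, 13.33, 13.47 and 13.25 in GFP3, 13.24, 13.25 and 13.11 in GFP2, 12.80, 12.79 and 12.78 in GFP1, and 13.02, 13.06 and 12.80 in Total. The GFP1 libraries lay below every library of the other bins, and replicate III of Total fell within their range. For Slc2a3 the difference was −0.60 (1.52-fold, SE 0.0843, adjusted p = 2.55e-05). Both transporters were therefore lower in GFP1, and their ratio also shifted: the log2 ratio of Slc2a3 to Slc2a1 rose by 0.14 per bin step towards GFP1 (two-sided permutation test over the 12 bin libraries with 100000 resamples, p = 0.00106, adjusted p = 0.00318 over the 15 pairs of related genes tested). Slc2a1 lies on chromosome 4 at 119108711 to 119137983, plus strand, in GRCm38.

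Hexokinases trap glucose in the cell by phosphorylating it. Hk1 is the broadly expressed form, Hk2 is inducible in muscle and many cancers, and Hk3 is found mainly in blood cells. Hk3 had 11.22, 11.07 and 11.17 in GFP4, 10.58, 11.13 and 10.48 in GFP3, 10.07, 10.94 and 10.34 in GFP2, 10.32, 10.86 and 10.07 in GFP1, and 10.15, 10.10 and 10.62 in Total. The GFP4 libraries stood above all GFP1 libraries, while replicate II was the highest of its group in GFP3, GFP2 and GFP1. Hk3 fell by 0.74 in GFP1 relative to GFP4 (SE 0.246, adjusted p = 0.0497), a call just inside the threshold that 16 of the 24 alternatives lost, with adjusted p-values of 0.0104 to 0.191 over all of them. Hk1 and Hk2 did not pass the test, with differences between GFP1 and GFP4 of 0.20 (adjusted p = 0.315) and −0.18 (adjusted p = 0.597). The log2 ratio of Hk3 to Hk1 fell by 0.32 per bin step (permutation p = 0.0125, adjusted p = 0.0267), and without the GFP1 libraries its adjusted p was 0.0918 by exact permutation.

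From glucose phosphate to triose phosphate, 1 of 7 genes was higher and 2 were lower in GFP1 than in GFP4. Gpi1, the isomerase of glucose phosphate, and the phosphofructokinases Pfkl, Pfkm and Pfkp, whose enzyme commits sugar to glycolysis, did not pass the test, with differences between −0.13 and 0.17. For all 4 of these genes the GFP1 and GFP4 libraries overlapped. Pfkp had its highest mean in GFP2, 11.97 ± 0.07 (SD, n = 3), with 11.84 ± 0.12 in GFP1 and 11.67 ± 0.09 in GFP4.

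Aldolases split the phosphorylated sugar into triose phosphates, and Aldoa and Aldoc are the muscle-type and brain-type forms. Aldoa had 14.27, 14.28 and 14.34 in GFP4, 14.00, 14.28 and 14.12 in GFP3, 13.95, 14.19 and 13.91 in GFP2, 13.71, 13.69 and 13.63 in GFP1, and 13.90, 13.88 and 14.12 in Total. All GFP1 libraries lay below every other library, including those of Total. The difference between GFP1 and GFP4 was −0.62 (1.54-fold, SE 0.089, adjusted p = 3.15e-05). Aldoc gave 9.91, 10.12 and 10.30 in GFP4, 9.68, 9.78 and 10.06 in GFP3, 9.81, 10.17 and 9.81 in GFP2, 9.41, 9.33 and 9.40 in GFP1, and 9.76, 9.75 and 10.09 in Total. Again the GFP1 libraries were the 3 lowest of all 15, between 9.33 and 9.41, and the other groups overlapped. Aldoc fell by 0.73 in GFP1 relative to GFP4 (SE 0.150, adjusted p = 0.00127). The slope of the log2 ratio of Aldoc to Aldoa over the bins was −0.01 per step (permutation p = 0.78), and that p does not show that the ratio was constant.

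Tpi1, which interconverts the triose phosphates, moved the other way. Tpi1 read 13.43, 13.43 and 13.57 in GFP4, 13.54, 13.61 and 13.61 in GFP3, 13.83, 13.73 and 13.71 in GFP2, 13.71, 13.76 and 13.65 in GFP1, and 13.65, 13.65 and 13.84 in Total. The GFP4 libraries lay below those of every other bin except GFP3 replicate I, and GFP2 had the highest mean. The rise in GFP1 relative to GFP4 was 0.23 (SE 0.0763, adjusted p = 0.0413), and 10 of the 24 alternatives, all of them with a library left out, lost this call (adjusted p up to 0.152).

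Pfkfb2, Pfkfb3 and Pfkfb4 encode enzymes that make and break the sugar bisphosphate that activates phosphofructokinase, and PFKFB3 is the form whose kinase activity most outweighs its phosphatase activity. All 3 were lower in GFP1 than in GFP4. Pfkfb3 had 10.96, 10.42 and 10.86 in GFP4, 9.92, 10.65 and 10.41 in GFP3, 9.88, 10.30 and 10.25 in GFP2, 9.73, 9.99 and 9.92 in GFP1, and 9.96, 10.31 and 9.91 in Total. GFP4 replicate II was below the other GFP4 libraries, but the GFP1 libraries still lay under all of GFP4. The difference between GFP1 and GFP4 was −0.87 (1.82-fold, SE 0.184, adjusted p = 0.00179). Pfkfb4 fell by 0.64 (SE 0.163, adjusted p = 0.00728), with 9.11, 9.64 and 9.28 in GFP1 against 9.91, 10.11 and 9.93 in GFP4, and without GFP1 replicate I its adjusted p was 0.0509. Pfkfb2 fell by 0.52 (SE 0.169, adjusted p = 0.0355), with 9.96, 9.77 and 9.63 in GFP1 against 10.29, 10.48 and 10.15 in GFP4, and 6 of 24 alternatives lost the call, both rescalings among them. Neither the ratio of Pfkfb2 nor that of Pfkfb4 to Pfkfb3 passed the permutation test over the bins (adjusted p = 0.288 for each).

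**Figure D2:**
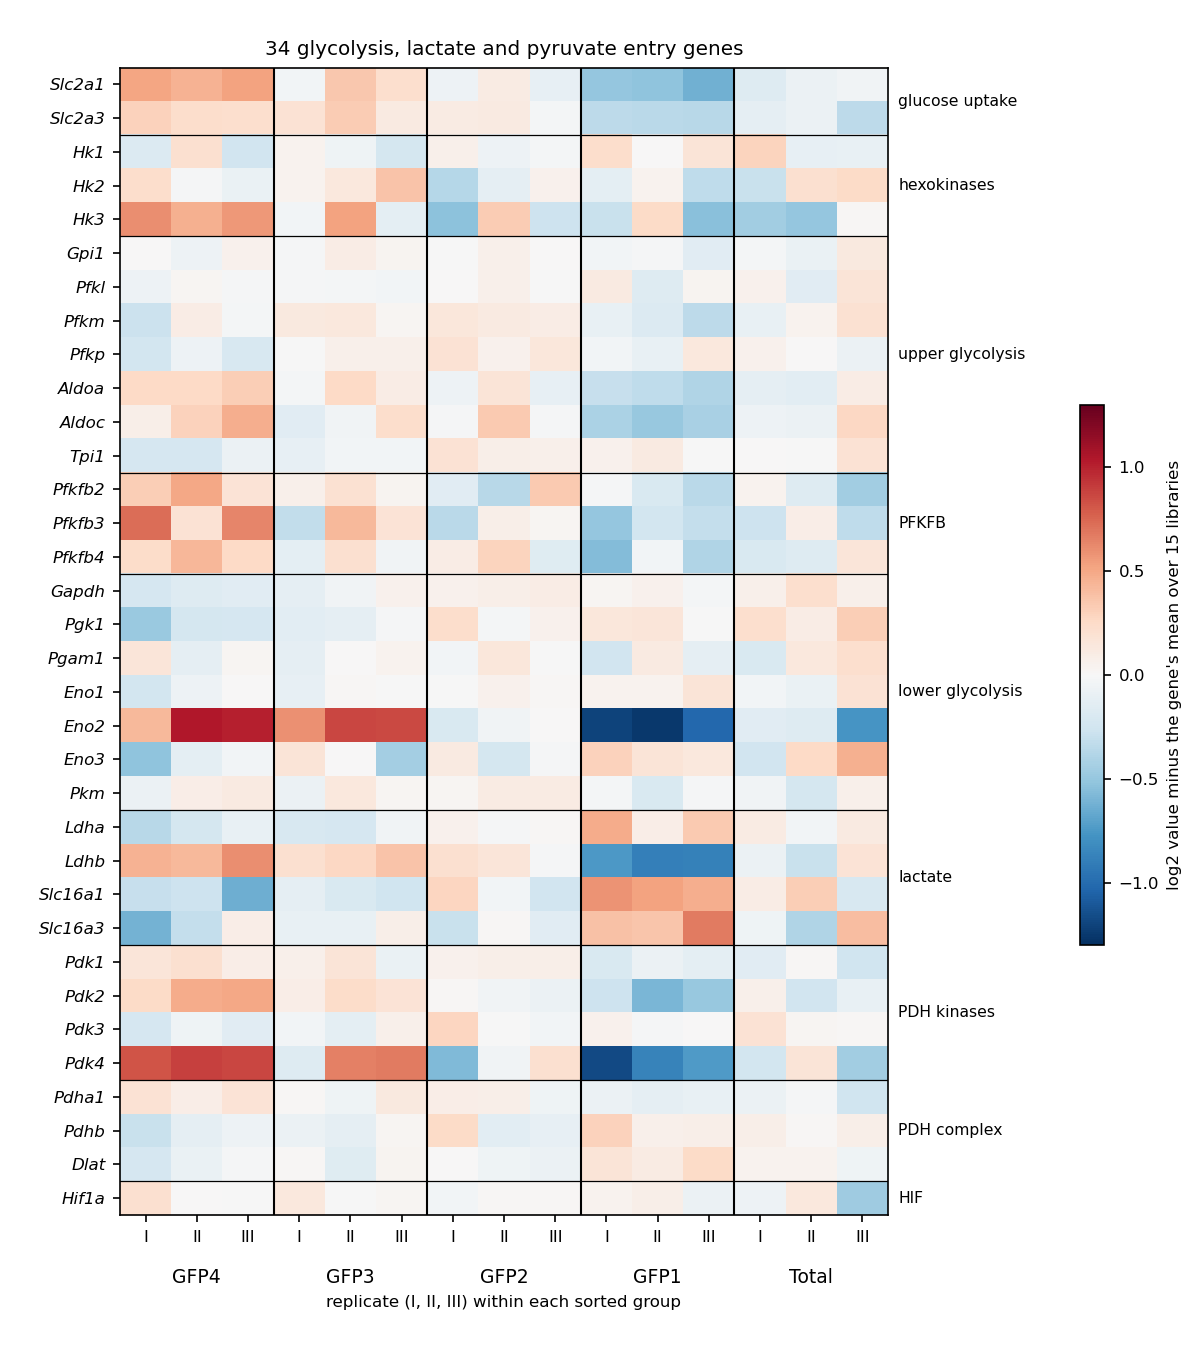
Value of each of the 34 genes in each of the 15 libraries, as log2 value minus the mean of that gene over all libraries (colour, red above and blue below the mean), with genes in rows grouped by role and libraries in columns by group and replicate. Eno2, Ldhb and Pdk4 run from red in GFP4 to blue in GFP1, Slc16a1 runs from blue to red, and rows such as Gpi1 and Pfkl show little colour.

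Below triose phosphate, 2 of 7 genes were higher and 1 was lower in GFP1 than in GFP4. Pgk1 makes the first ATP of the pathway. Pgk1 had 12.24, 12.49 and 12.50 in GFP4, 12.58, 12.60 and 12.71 in GFP3, 12.95, 12.69 and 12.77 in GFP2, 12.87, 12.87 and 12.71 in GFP1, and 12.94, 12.81 and 13.04 in Total. All GFP4 libraries lay below all libraries of the other groups, and Total had the highest mean. Pgk1 rose by 0.41 in GFP1 relative to GFP4 (SE 0.0957, adjusted p = 0.00374), almost all of it between GFP4 and GFP2: GFP2 exceeded GFP4 by 0.40 (adjusted p = 0.0200), and GFP1 exceeded GFP2 by 0.01.

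Gapdh encodes the dehydrogenase that acts just before Pgk1. Gapdh had 14.73, 14.79 and 14.81 in GFP4, 14.83, 14.90 and 15.01 in GFP3, 15.01, 15.03 and 15.05 in GFP2, 14.98, 15.01 and 14.92 in GFP1, and 15.02, 15.17 and 15.02 in Total. The GFP4 libraries were the 3 lowest of the 15. Gapdh rose by 0.19 in GFP1 relative to GFP4 (SE 0.0659, adjusted p = 0.0449) and by 0.25 in GFP2 relative to GFP4 (adjusted p = 0.0307). Its value is uncertain because 271 rows of the table are named as Gapdh pseudogenes, and their summed linear value came to 35.2% to 70.3% of that of Gapdh itself. With these rows added the difference between GFP1 and GFP4 was 0.22, and 10 of the 24 alternatives, each with a library left out, lost the call. For the other members such copies summed to at most 7.21% (Pgam1), and to at most 2.00% elsewhere.

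Enolase forms phosphoenolpyruvate. Eno1 is the broadly expressed form, Eno2 the neuronal form and Eno3 the muscle form. Eno2 had 8.33, 8.95 and 8.92 in GFP4, 8.50, 8.78 and 8.76 in GFP3, 7.70, 7.86 and 7.91 in GFP2, 6.71, 6.65 and 6.88 in GFP1, and 7.76, 7.73 and 7.14 in Total. GFP4 and GFP3 overlapped, GFP2 lay below both, and GFP1 lay below everything else. Eno2 fell by 1.99 in GFP1 relative to GFP4 (3.96-fold, SE 0.223, adjusted p = 1.95e-06), by 0.91 in GFP2 relative to GFP4 (adjusted p = 0.0225) and by 1.08 in GFP1 relative to GFP2 (adjusted p = 0.00466). Eno1 did not fall with it: its difference between GFP1 and GFP4 was 0.18 (SE 0.0811, adjusted p = 0.144), and it passed only with quantile normalization repeated without immunoglobulin genes (0.25, adjusted p = 0.0339) and with median-of-ratios rescaling (0.24, adjusted p = 0.0408). The log2 ratio of Eno2 to Eno1 fell by 0.74 per bin step (permutation p = 4e-05, adjusted p = 0.000200), with means of −7.67 ± 0.05 in GFP1 and −5.50 ± 0.23 in GFP4 (SD, n = 3 each), a 4.49-fold shift.

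Eno3, Pgam1 (phosphoglycerate mutase) and Pkm (pyruvate kinase, the last step to pyruvate) did not pass the test between GFP1 and GFP4. Their differences were 0.43 for Eno3 (SE 0.232, adjusted p = 0.252), −0.11 for Pgam1 (adjusted p = 0.652) and −0.12 for Pkm (adjusted p = 0.43). The Eno3 libraries of GFP1, from 7.99 to 8.15, nonetheless all lay above those of GFP4, from 7.32 to 7.82. The table has 1 row per gene symbol, so the spliced forms of Pkm (PKM1 and PKM2) cannot be separated.

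Lactate dehydrogenase is a tetramer of A and B subunits. The A subunit, from Ldha, favours reduction of pyruvate to lactate, and the B subunit, from Ldhb, favours the reverse. In mice, loss of Ldha impairs HSCs and progenitors. Lactate leaves or enters cells through the monocarboxylate transporters Slc16a1 (MCT1), the broadly expressed form, and Slc16a3 (MCT4), known for export from glycolytic cells. All 4 genes were called between GFP1 and GFP4, 3 higher and 1 lower.

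Ldha had 14.76, 14.88 and 15.02 in GFP4, 14.90, 14.89 and 15.06 in GFP3, 15.17, 15.10 and 15.12 in GFP2, 15.60, 15.20 and 15.46 in GFP1, and 15.22, 15.08 and 15.23 in Total. Each GFP1 library lay above each GFP4 and GFP3 library, and GFP1 replicate II stood close to GFP2 and Total. The difference between GFP1 and GFP4 was 0.53 (1.44-fold, SE 0.0906, adjusted p = 0.00021). Ldhb had 12.53, 12.49 and 12.68 in GFP4, 12.29, 12.35 and 12.45 in GFP3, 12.28, 12.24 and 12.06 in GFP2, 11.33, 11.19 and 11.20 in GFP1, and 12.00, 11.79 and 12.26 in Total. The GFP1 libraries lay below every other library, of which replicate II of Total was the nearest. Ldhb fell by 1.33 in GFP1 relative to GFP4 (2.51-fold, SE 0.108, adjusted p = 4.65e-08), and 0.96 of this lay between GFP1 and GFP2 (SE 0.108, adjusted p = 1.93e-05).

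The genes of the subunits moved in opposite directions across the bins. Within single libraries the log2 ratio of Ldha to Ldhb was 2.23, 2.39 and 2.34 in GFP4, 2.62, 2.55 and 2.62 in GFP3, 2.89, 2.86 and 3.06 in GFP2, 4.27, 4.01 and 4.26 in GFP1, and 3.22, 3.29 and 2.98 in Total. The 4 bins did not overlap, and their means stood in bin order. The ratio rose by 0.59 per step (permutation p = 2e-05, adjusted p = 0.00015), and GFP1 exceeded GFP4 by 1.86, a 3.63-fold shift. A factor common to all genes of a library cancels in this ratio. Without the GFP1 libraries the slope over GFP4, GFP3 and GFP2, set by the GFP2 and GFP4 means, was 0.31 per step (exact permutation test, adjusted p = 0.00893). Its level depends on the unknown unit of the values and is not read.

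Slc16a1 had 11.03, 11.06 and 10.70 in GFP4, 11.21, 11.13 and 11.07 in GFP3, 11.61, 11.29 and 11.08 in GFP2, 11.92, 11.85 and 11.80 in GFP1, and 11.43, 11.64 and 11.12 in Total. The GFP1 libraries were the 3 highest of the 15, and GFP4 replicate III the lowest. Slc16a1 rose by 0.93 in GFP1 relative to GFP4 (1.90-fold, SE 0.141, adjusted p = 5.90e-05), and by 0.53 in GFP1 relative to GFP2 (SE 0.141, adjusted p = 0.0245). Slc16a3 had 7.58, 7.89 and 8.28 in GFP4, 8.10, 8.10 and 8.27 in GFP3, 7.90, 8.21 and 8.05 in GFP2, 8.58, 8.56 and 8.88 in GFP1, and 8.14, 7.80 and 8.60 in Total. The spread within GFP4 (SD 0.35) and Total (SD 0.40) was the widest of any member in those groups, and GFP1 lay above all of GFP4, GFP3 and GFP2. Slc16a3 rose by 0.76 in GFP1 relative to GFP4 (SE 0.223, adjusted p = 0.0196). The test was no longer passed without GFP4 replicate I (adjusted p = 0.111), GFP4 replicate II (0.0567) or GFP1 replicate III (0.0989). Their log2 ratio had no detected slope over the bins (−0.08 per step, adjusted p = 0.403).

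**Figure D3:**
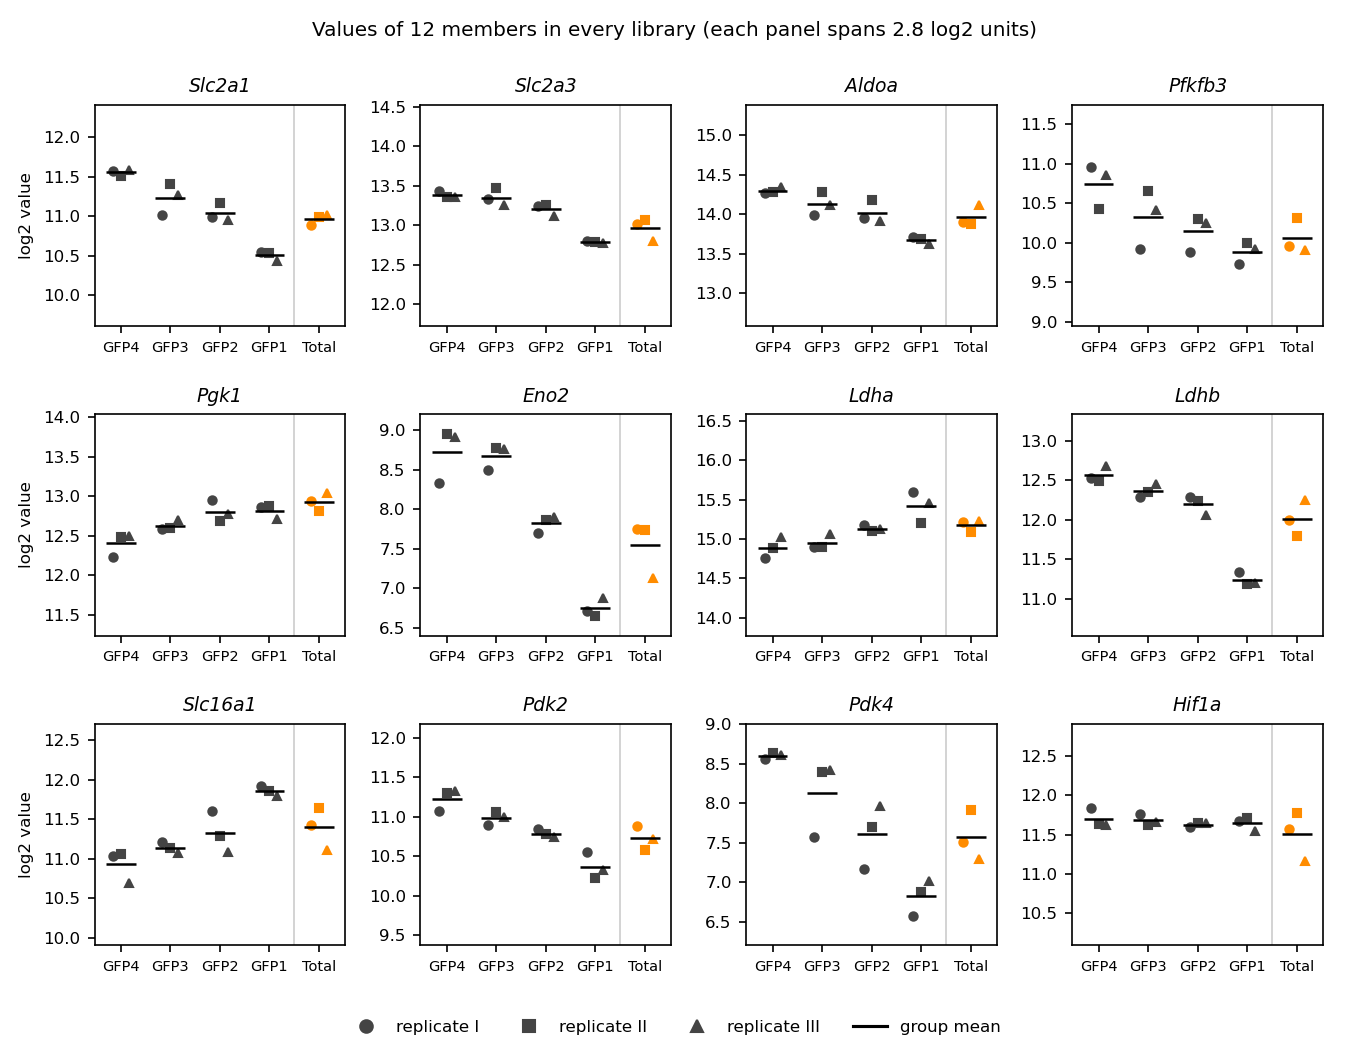
Log2 values of 12 members in each library (points, with a shape per replicate) by group, with black lines for group means and orange points for Total; every panel spans the same number of log2 units, so that slopes can be compared between panels. Ldha and Ldhb run in opposite directions from GFP4 to GFP1, Eno2 and Pdk4 fall steepest, and Hif1a stays between 11.17 and 11.84 in all libraries.

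Promoter sequences of 4 of these genes are shown because Ldha and Slc2a1 are textbook targets of the hypoxia-inducible factors, which bind the core letters ACGTG or GCGTG, and moved in opposite directions, while Ldhb and Slc16a1 are the lactate genes with the largest changes each way. Each is a RefSeq window of 300 bases (250 before to 50 after the gene start, GRCm38.p6), printed 5′ to 3′ on the strand of the gene. Capitals mark every ACGTG and GCGTG on either strand (the reverse strand reads CACGT and CACGC), and CACGTG, the E-box core bound by Myc and its relatives. CACGTG contains ACGTG on both strands and so overlaps it.
Ldha, chr7:46845554-46845853, plus strand: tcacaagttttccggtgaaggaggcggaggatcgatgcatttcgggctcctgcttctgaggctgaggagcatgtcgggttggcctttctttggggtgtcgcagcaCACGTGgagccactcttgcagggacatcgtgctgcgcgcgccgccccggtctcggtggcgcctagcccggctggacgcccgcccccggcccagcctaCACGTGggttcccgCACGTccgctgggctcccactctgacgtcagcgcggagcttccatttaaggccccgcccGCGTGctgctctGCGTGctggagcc
Ldhb, chr6:142507908-142508207, minus strand: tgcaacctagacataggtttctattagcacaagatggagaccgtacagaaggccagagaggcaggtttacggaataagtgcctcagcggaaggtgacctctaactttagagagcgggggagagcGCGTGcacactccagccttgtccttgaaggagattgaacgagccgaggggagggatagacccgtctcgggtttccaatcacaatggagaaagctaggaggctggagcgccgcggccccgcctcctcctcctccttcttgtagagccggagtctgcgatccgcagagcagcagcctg
Slc16a1, chr3:104638414-104638713, plus strand: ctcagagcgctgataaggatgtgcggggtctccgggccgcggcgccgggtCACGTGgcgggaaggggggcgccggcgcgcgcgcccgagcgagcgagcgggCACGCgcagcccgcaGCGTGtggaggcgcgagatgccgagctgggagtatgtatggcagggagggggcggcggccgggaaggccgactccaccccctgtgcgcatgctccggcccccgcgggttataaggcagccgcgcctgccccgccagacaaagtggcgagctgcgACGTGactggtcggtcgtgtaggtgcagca
Slc2a1, chr4:119108495-119108794, plus strand: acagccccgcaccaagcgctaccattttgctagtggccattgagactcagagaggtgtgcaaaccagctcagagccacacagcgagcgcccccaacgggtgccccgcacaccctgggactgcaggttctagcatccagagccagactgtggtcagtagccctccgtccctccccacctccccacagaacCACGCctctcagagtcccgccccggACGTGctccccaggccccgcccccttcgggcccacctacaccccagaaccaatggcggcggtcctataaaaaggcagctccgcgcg

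The Ldha window held 7 core matches counted over both strands, 5 of ACGTG and 2 of GCGTG, with CACGTG present in 2 places. A second listed start of Ldha, at chr7:46846832-46847131, held 2 matches of GCGTG. Slc16a1 had 5 core matches and 1 CACGTG, Slc2a1 had 2 core matches, and Ldhb had 1, a GCGTG. Of the 34 genes, 33 matched the promoter table, with 49 windows between them. ACGTG or GCGTG occurred in 39 of the 49 windows and in 29 of the 33 genes, and in 43.8% of all 32851 windows and 46.7% of all 27025 genes in the table. CACGTG occurred in 7 of the 33 genes (Hif1a, Ldha, Pdk2, Pfkfb2, Pfkfb3, Pfkm and Slc16a1) and in 8.09% of all genes in the table, or in 7 of the 49 windows and 7.15% of all windows. Each core motif contains CG, and the reference of all genes was not matched for base composition or for windows per gene. These are matches of letters, and nothing about binding was measured.

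Pyruvate dehydrogenase kinases phosphorylate the complex and thereby hold pyruvate back from mitochondria. Pdk1 is a textbook target of HIF1A, Pdk2 is broadly expressed, and Pdk4 is induced by fasting and by fatty acid use. Of the 4 kinases, 3 fell in GFP1 relative to GFP4 and none rose. Pdk4 had 8.57, 8.63 and 8.62 in GFP4, 7.58, 8.40 and 8.42 in GFP3, 7.17, 7.71 and 7.96 in GFP2, 6.58, 6.88 and 7.01 in GFP1, and 7.51, 7.92 and 7.30 in Total. The GFP4 libraries lay close together and above all others, GFP1 lay below all others, and replicate I was the lowest library of each bin. Pdk4 fell by 1.78 in GFP1 relative to GFP4 (3.44-fold, SE 0.264, adjusted p = 4.55e-05) and by 0.99 in GFP2 relative to GFP4 (SE 0.264, adjusted p = 0.0360).

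Pdk2 had 11.07, 11.30 and 11.33 in GFP4, 10.90, 11.06 and 11.00 in GFP3, 10.84, 10.78 and 10.75 in GFP2, 10.55, 10.22 and 10.33 in GFP1, and 10.89, 10.57 and 10.72 in Total. The GFP1 libraries were the 3 lowest of the 15. Pdk2 fell by 0.86 in GFP1 relative to GFP4 (1.82-fold, SE 0.115, adjusted p = 1.41e-05), with falls of 0.44 in GFP2 relative to GFP4 (adjusted p = 0.0309) and of 0.42 in GFP1 relative to GFP2 (adjusted p = 0.0296). Pdk1 fell by 0.28 (SE 0.0952, adjusted p = 0.0410), with 11.40, 11.53 and 11.47 in GFP1 against 11.76, 11.81 and 11.69 in GFP4, and 11 of 24 alternatives lost this call (adjusted p up to 0.140). Pdk3 did not pass the test (0.16, SE 0.0962, adjusted p = 0.332).

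Ratios among the kinases were read relative to Pdk2, which itself fell by 0.86 in GFP1 relative to GFP4. The log2 ratio of Pdk3 to Pdk2 rose by 0.34 per bin step (permutation p = 2e-05, adjusted p = 0.00015), that of Pdk1 rose by 0.20 (adjusted p = 0.000937) and that of Pdk4 fell by 0.31 (adjusted p = 0.0133). Between GFP4 and GFP1, Pdk3 itself changed by 0.16 and Pdk1 fell by 0.28, so the 2 rises carry the fall of Pdk2. Without the GFP1 libraries the ratio of Pdk4 to Pdk2 gave an exact permutation adjusted p of 0.147. The log2 ratio of Pdk3 to Pdk2 averaged 0.72 ± 0.09 in GFP4, then 1.07 ± 0.15 in GFP3, 1.38 ± 0.12 in GFP2 and lastly 1.74 ± 0.13 in GFP1 (SD, n = 3 each).

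Of the pyruvate dehydrogenase complex itself, Dlat encodes the subunit that transfers the acetyl group, and Pdha1 and Pdhb encode the subunits of the dehydrogenase itself. Dlat rose by 0.28 in GFP1 relative to GFP4 (SE 0.0936, adjusted p = 0.0391), with 11.45, 11.39 and 11.53 in GFP1 against 11.06, 11.20 and 11.26 in GFP4. Leaving out any one of GFP4 replicates I and II, GFP2 replicate II or the 3 GFP1 libraries ended that call (adjusted p of 0.0513 to 0.175). Pdhb (0.30, adjusted p = 0.0533) and Pdha1 (−0.24, adjusted p = 0.0579) missed the threshold in opposite directions, and in both cases the GFP1 and GFP4 libraries did not overlap. Pdhb passed it in 9 of 24 alternatives (adjusted p down to 0.0146) and Pdha1 in 5 (down to 0.0217).

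Hif1a encodes the oxygen-regulated subunit of a transcription factor that activates many genes of this pathway, and its activity is set mainly by protein stability. Hif1a had 11.84, 11.63 and 11.62 in GFP4, 11.76, 11.62 and 11.66 in GFP3, 11.59, 11.65 and 11.64 in GFP2, 11.67, 11.71 and 11.55 in GFP1, and 11.57, 11.77 and 11.17 in Total. The bins overlapped, and Total replicate III was the lowest library. The difference between GFP1 and GFP4 was −0.05 (SE 0.121, adjusted p = 0.859), and no alternative called it (adjusted p of 0.759 to 0.998).

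**Figure D4:**
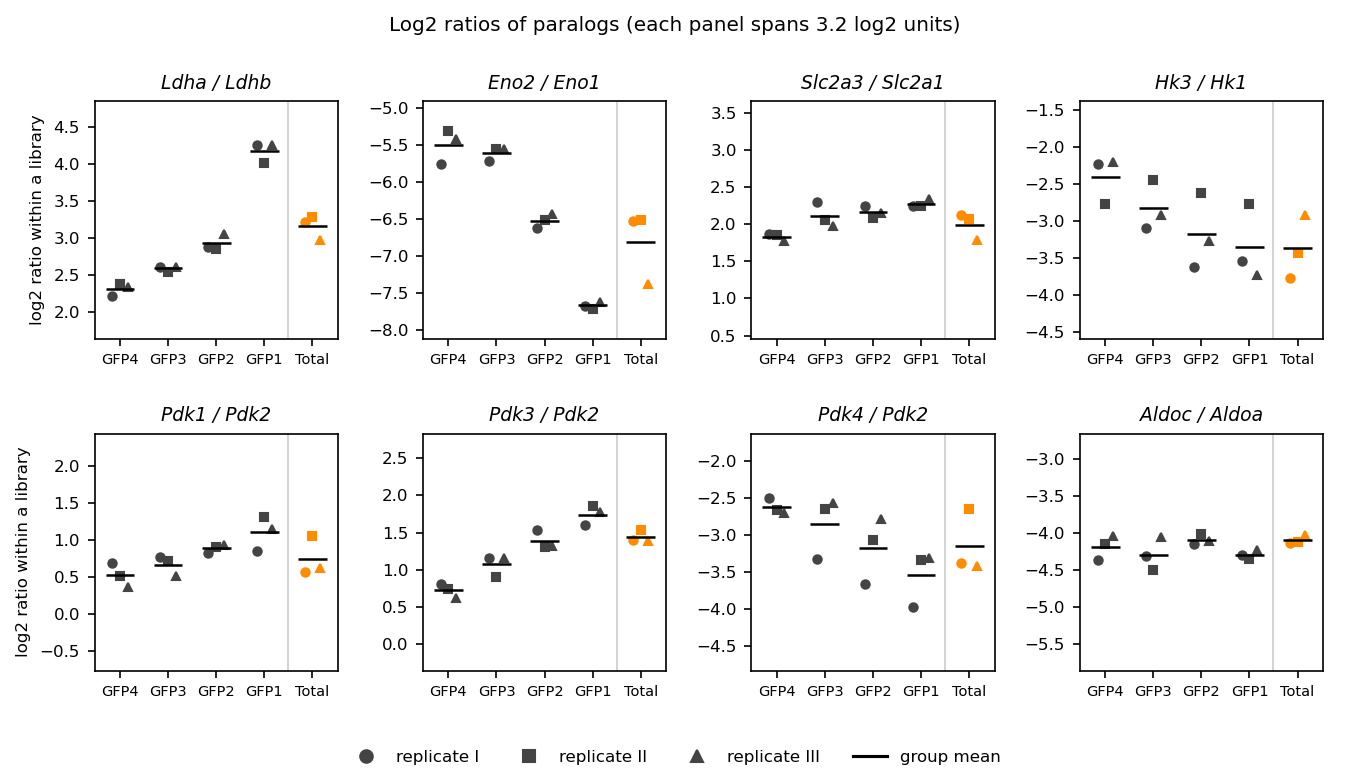
Log2 ratios of 8 pairs of related genes within each library (points) by group, with black lines for group means, orange points for Total and the same number of log2 units in every panel. Ldha over Ldhb rises and Eno2 over Eno1 falls towards GFP1 by about the same number of units (1.86 and −2.17), and Aldoc over Aldoa runs nearly level (−0.01 per step).

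Of the 15 pairs of related genes tested, 7 ratios changed with bin at an adjusted p under 0.05: Ldha to Ldhb, Slc2a3 to Slc2a1, Hk3 to Hk1, Eno2 to Eno1, and Pdk1, Pdk3 and Pdk4 to Pdk2. The kinase ratios all share Pdk2 and are not independent of each other. The other 8 did not pass, with adjusted p-values of 0.130 (Hk2 to Hk1) to 0.780 (Aldoc to Aldoa). The smallest p that 100000 resamples can give is 1e-05.

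The comparisons of neighbouring bins show where along the series the differences lay. Between GFP3 and GFP4, limma called 0 of the 34 genes, against 0.0429% of all genes higher and 0.0143% lower. At an unadjusted p under 0.05, 6 of the 34 and 5.86% of all genes passed. Between GFP2 and GFP3, 0 of the 34 genes and 0% of all genes in either direction were called, and 2 members and 5.60% of all genes passed at an unadjusted p under 0.05. None of the 25 alternatives called a member in either of these comparisons. The largest member difference between GFP2 and GFP3 was that of Eno2, −0.85 (SE 0.223, unadjusted p = 0.00114, adjusted p = 0.472).

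Between GFP2 and GFP4, 3 of the 34 genes were higher (2.69% of all genes) and 4 were lower (1.67% of all genes). The higher genes were Pgk1 (0.40), Tpi1 (0.28) and Gapdh (0.25), and the lower ones Pdk4 (−0.99), Eno2 (−0.91), Slc2a1 (−0.52) and Pdk2 (−0.44). Only the call of Slc2a1 held with each library left out in turn, and each of the others was lost in 2 to 11 of 25 alternatives, all with a library left out. This comparison shares its GFP4 libraries with that of GFP1 and GFP4. Plasma cell markers summed to 0.0234% to 0.0297% in GFP2 and 0.0298% to 0.0588% in GFP4. Both sums include Xbp1, which makes up most of that in GFP2.

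The comparison was repeated with neither GFP1 nor Total in the fit, a choice made after seeing the data. Over the remaining bins a linear slope is set by the GFP2 and GFP4 means alone, so it gives the same test. Called higher in GFP2 than in GFP4 were Tpi1 (0.28), Gapdh (0.25), Pgk1 (0.40) and Pfkp (0.30), and called lower were Slc2a1 (−0.52), Eno2 (−0.91), Ldhb (−0.37), Pdk2 (−0.44) and Pdk4 (−0.99). Their adjusted p-values lay between 0.0101 (Slc2a1) and 0.0469 (Pfkp). Ldha (0.24, adjusted p = 0.0604) and Slc16a1 (0.40, adjusted p = 0.110) did not pass in that fit.

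Between GFP1 and GFP2, 1 of the 34 genes was higher (3.06% of all genes) and 7 were lower (4.10% of all genes). Slc16a1 was the higher one (0.53). The lower genes were Eno2 (−1.08), Ldhb (−0.96), Aldoc (−0.55), Slc2a1 (−0.53), Pdk2 (−0.42), Slc2a3 (−0.41) and Aldoa (−0.34). For Ldhb, Eno2, Slc2a1 and Slc2a3 the call held under all 24 alternatives, and each of the other 4 was lost in 5 to 7 of them. With replicate number as a block, limma called 2 members higher (3.70% of all genes) and 8 lower (5.09%) in GFP1 than in GFP2, the added ones being Ldha (0.29, SE 0.0809, adjusted p = 0.0317) and Pdk4 (−0.79, SE 0.229, adjusted p = 0.0370). All 10 plasma cell markers were also higher in GFP1 than in GFP2, and their part in these calls was not tested.

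Over all 4 bins the linear trend called 7 of the 34 genes higher towards GFP1 (9.60% of all genes) and 12 lower (10.5% of all genes). It differed from the comparison of GFP1 with GFP4 in that Pdhb passed (0.10 per step, adjusted p = 0.0494) and Dlat (adjusted p = 0.0520) and Pdk1 (adjusted p = 0.0591) did not. Of the 20 genes called between GFP1 and GFP4, 13 had bin means in order from GFP4 to GFP1, or 65% against 76.7% of all 5468 genes called there. The step from GFP2 to GFP1 was the largest of the 3 for 14 of the 20 (70%, and 73.2% of all called genes), that from GFP4 to GFP3 for 5 (25%, and 15.5% of all) and that from GFP3 to GFP2 for 1, Tpi1. Hk3, Pfkfb2, Pfkfb3, Gapdh and Pgk1 were the 5 whose largest step came first.

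**Figure D5:**
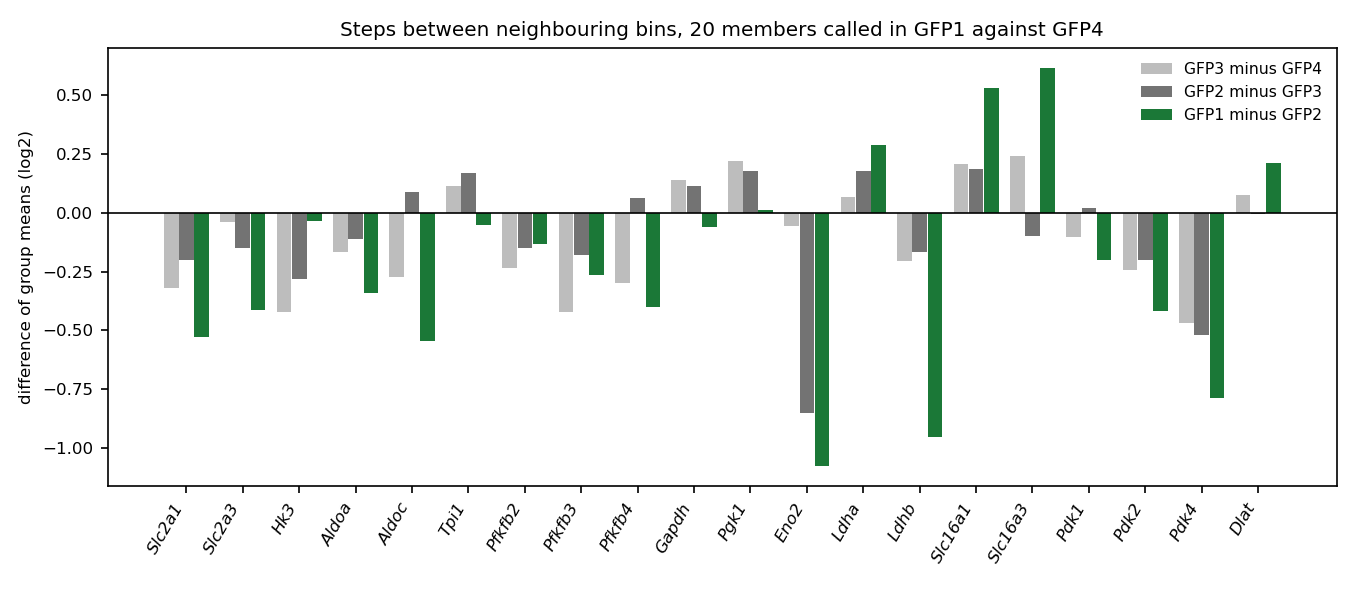
Differences between the means of neighbouring bins (log2, vertical axis) for the 20 genes called between GFP1 and GFP4, with 3 bars per gene for GFP3 minus GFP4, GFP2 minus GFP3 and GFP1 minus GFP2. The green bar of GFP1 minus GFP2 is the longest for Ldhb (−0.96), Slc16a1 (0.53) and 12 other genes, and is near 0 for Pgk1 (0.01) and Hk3 (−0.03).

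Against Total, the undivided HSC sort, GFP1 had 0 higher genes among the 34 (0.318% of all genes by limma) and 2 lower ones (1.41% of all genes). At an unadjusted p under 0.05, 3 members were higher and 8 lower, and 11.8% of all genes passed in either direction. With replicate number as a block, limma also called Slc16a1 higher in GFP1 than in Total (0.46, SE 0.109, adjusted p = 0.0276), where 0.557% of all genes were called higher. The lower genes were Ldhb (−0.77, SE 0.108, adjusted p = 0.000677) and Slc2a1 (−0.46, SE 0.107, adjusted p = 0.0326). The Slc2a1 call was lost in 8 of 23 alternatives, and that of Ldhb in none. Plasma cell markers summed to 2.05% to 2.73% in GFP1 and 2.20% to 2.39% in Total, and none of the 10 passed the test between them. Igkc, which is among the 10, read 19.12 in every library of both groups (SD 0), so after quantile normalization its test could show no difference. Equal plasma cell content is therefore not shown.

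GFP4 had 9 genes higher than Total (4.70% of all genes) and 4 lower (5.29% of all genes). The higher genes were Eno2 (1.19), Pdk4 (1.03), Hk3 (0.86), Pfkfb3 (0.69), Slc2a1 (0.59), Ldhb (0.55), Pdk2 (0.50), Slc2a3 (0.43) and Aldoa (0.33), and the lower ones Pgk1 (−0.52), Slc16a1 (−0.47), Gapdh (−0.29) and Ldha (−0.29). All 10 plasma cell markers were lower in GFP4 than in Total. In a fit of the GFP4 and Total libraries alone 1 member was lower. The share of all genes called in that fit is not given, so this count is not read further. Of the 20 genes called between GFP1 and GFP4, the Total mean lay between the lowest and highest bin mean for 16 (80%, against 94.3% of all called genes), and outside for Hk3, Pfkfb2, Gapdh and Pgk1.

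The median difference of the 34 genes, with that of all genes tested beside it, was 0.02 and −0.01 for GFP2 against GFP4, −0.01 and 0.00 for GFP3 against GFP4, 0.02 and 0.00 for GFP2 against GFP3, and −0.10 and −0.05 for GFP1 against GFP2. It was −0.04 and 0.00 for GFP1 against Total, −0.01 and 0.07 for GFP4 against Total, and −0.03 and −0.02 per step for the trend.

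Spread between replicates was small for most of the 34 genes. The median SD over the members was 0.10 in GFP1, 0.10 in GFP2, 0.10 in GFP3, 0.11 in GFP4 and 0.15 in Total. The widest were Hk3 in GFP1 (0.40) and GFP2 (0.44), Pdk4 in GFP3 (0.48), and Slc16a3 in GFP4 (0.35) and Total (0.40).

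Neighbouring genes of the pathway outside the 34 were read from lists chosen by function. Of 18 further glycolytic genes, 1 was higher in GFP1 than in GFP4 (9.27% of all genes) and none was lower (10.3% of all genes). The higher one was Pklr, the liver and red cell pyruvate kinase, by 2.56 (adjusted p = 0.00601), at 7.13, 6.06 and 6.74 in GFP1 against 3.26, 4.78 and 4.22 in GFP4. In the same comparison 4 of 8 erythroid markers were higher, and their part in the Pklr value was not tested. The median of this list was −0.07, as for all genes (−0.07).

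Among 18 genes at the side of lactate and pyruvate, 3 were higher (9.27% of all genes) and 3 lower (10.3% of all genes) in GFP1 than in GFP4. The list median was 0.10. The higher ones were Me2 (1.23, adjusted p = 2.07e-07), the mitochondrial malic enzyme, Pcx (1.06), the carboxylase that turns pyruvate to oxaloacetate, and Mpc1 (0.34), a subunit of the mitochondrial pyruvate carrier. The lower ones were Ldhd (−2.23, adjusted p = 1.96e-07), a lactate dehydrogenase specific for D-lactate, Pdp1 (−1.06), the phosphatase that reverses the kinases' action, and Me1 (−0.78), the cytosolic malic enzyme. Ldhd read 8.01, 8.21 and 8.30 in GFP1 against 10.13, 10.45 and 10.64 in GFP4, and Pdp1 read 10.16, 10.25 and 10.14 in GFP1 against 11.59, 11.11 and 11.02 in GFP4. Pdp1 and the kinases Pdk1, Pdk2 and Pdk4, whose action it opposes, were all lower in GFP1.

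The pentose phosphate pathway draws on glucose phosphate to make ribose and reducing power. Of its 7 genes, 3 were higher in GFP1 than in GFP4 (9.27% of all genes) and none was lower (10.3% of all genes), with a median of 0.09. They were Pgls (0.67, adjusted p = 3.93e-05), Taldo1 (0.57, adjusted p = 0.000491) and Tkt (0.48, adjusted p = 0.000302), the lactonase and the transaldolase and transketolase of the branch that returns carbon to glycolysis. Pgls read 12.01, 11.92 and 11.94 in GFP1 against 11.26, 11.25 and 11.34 in GFP4.

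Of 12 genes that regulate HIF or glucose uptake, none was higher (9.27% of all genes) and 6 were lower (10.3% of all genes) in GFP1 than in GFP4. The list median was −0.37. Txnip, which restrains glucose uptake, fell by 1.57 (adjusted p = 7.05e-09), with 14.99, 15.10 and 15.02 in GFP1 against 16.57, 16.57 and 16.68 in GFP4. Hif3a fell by 1.84 (adjusted p = 5.75e-07) and Epas1, which encodes HIF2A, by 1.54 (adjusted p = 0.000277). The other lower genes were Egln1, Cited2 and Meis1, outside the 3 that the naming rule takes by smallest p. Egln1 averaged 10.42 in GFP4 and 7.42 in GFP1, with a wide spread in GFP3 (SD 1.06) and GFP2 (SD 1.05). Of 12 known HIF targets outside the 34, 2 were higher (Ndrg1, 0.70, and Car9, 0.49) and 3 lower (P4ha1, −0.91, Bnip3, −0.62, and Bnip3l, −0.25), with a list median of −0.07. The shares over all genes are again 9.27% higher and 10.3% lower.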

How the data were processed

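RNA-seq libraries of 5 groups with 3 libraries each were analysed. The labels' protocols give SMART-Seq v4 amplification and Nextera XT libraries, and the submitters' processing notes name kallisto 0.43.0 and GRCm38. The authors deposited 1 table of log2 values per gene symbol, quantile normalized by the authors. Its unit before the logarithm is not given in the sources used here, so read depth and its precision are unknown.

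From the deposited log2 values, genes were kept that reached a linear value (2 to the power of the value, minus 1) of 1 in 3 or more libraries. limma 3.58.1 in R 4.3.3 fitted 5 group means over all 15 libraries with trended, robust variance (10 residual degrees of freedom), with Benjamini-Hochberg adjustment over all genes tested. Slopes of log2 ratios of related genes used two-sided permutation tests over the 12 bin libraries, which took no account of replicate number. Replicate numbers mark the same age and doxycycline time in every group, per the labels. Deviations from group means correlated over 0.1 in all 3 same-number pairs of libraries for GFP1 with GFP2 (0.4292 to 0.4809) and GFP1 with Total (0.4626 to 0.6486), so these are taken as paired, a reading made after both fits had been seen, and their fits with replicate number as a block stand beside the main ones where they change a call. Correlations over 0.1 in all 3 pairs were also seen for GFP3 with GFP1 (0.2763 to 0.5377), GFP3 with Total (0.2555 to 0.566) and GFP2 with Total (0.3445 to 0.3933). These groups were not compared directly here. For GFP4 with any other group at least 1 pair was below 0 (lowest −0.4918). All members are accounted for, and of each further list at most 3 genes each way are named, by smallest p between GFP1 and GFP4. Values of Egln1 are given besides, for the size of its fall. The members and lists were chosen with earlier results of these data known. Alternatives changed the filter, scaling, pseudocount (0.1), array weights, replicate block and libraries included. Promoter windows came from RefSeq (GRCm38.p6). Figures were drawn with matplotlib 3.10.9.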

Additional observations from a re-analysis of the deposited data

How the results depend on the processing

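Most of the results kept their direction and their side of the threshold. For GFP1 against GFP4, 730 values did so, 63 lost the call, 17 gained one and 6 turned sign. The turns were Hif1a (0.00177 with median-of-ratios rescaling, −0.0902 to 0.0173 with a library left out) and Pfkl (−0.0189 with array weights, −0.0488 to 0.0936 with a library left out), neither called. Without the GFP1 libraries the slopes of the log2 ratios of Pfkm to Pfkl (0.0749) and Aldoc to Aldoa (0.0489) turned sign, and Aldoc to Aldoa ranged from −0.0340 to 0.00890 with a library left out. Without the GFP1 and Total libraries the trend, then the same test as GFP2 against GFP4, called 4 members higher and 5 lower. In fits of the compared groups alone, 7 members were lower in GFP2 than in GFP4, 1 lower in GFP1 than in Total and 1 lower in GFP4 than in Total. With median-of-ratios rescaling 2 members were higher and 4 lower in GFP1 than in GFP2, and 1 was lower in GFP1 than in Total. With quantile normalization repeated without immunoglobulin genes, 2 were higher in GFP1 than in GFP2. The cause was not tested. With a library left out, members higher and lower numbered 3 to 8 and 10 to 13 for GFP1 against GFP4, 0 to 4 and 1 to 6 for GFP2 against GFP4, 0 to 1 and 4 to 7 for GFP1 against GFP2, and 5 to 10 and 2 to 4 for GFP4 against Total; 1 to 2 were lower in GFP1 than in Total, and the trend called 3 to 9 higher and 9 to 14 lower. Shares of all genes called in the altered fits above are not given, so their member counts are not read further. With replicate number as a block, 8 members were higher (9.96% of all genes) and 13 lower (11.2%) in GFP1 than in GFP4. For GFP2 against GFP4, 4 were higher (3.34%) and 6 lower (2.39%), the gained calls being Ldhb, Pfkfb3 and Slc16a1. For GFP4 against Total, 10 were higher (5.83%) and 4 lower (6.05%). In the same fit 2 were higher in GFP1 than in GFP2 (3.70%) and 1 in GFP1 than in Total (0.557%). The block ended no call of a member. Read depth is unknown, which limits what can be said of low genes such as Pklr.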
